A study of Arabidopsis thaliana with 8 samples.

Results

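Genes of pectin-modifying enzymes were followed in Arabidopsis thaliana embryos of 2 crosses at 2 ages. Members were all gene models on the array whose deposited description holds the word pectinesterase, polygalacturonase or pectate lyase. There were 185 such gene models, from 184 genes, among 26116 gene models in all. Of these, 96 were pectinesterase, 66 polygalacturonase and 23 pectate lyase gene models, and no description held more than 1 of the 3 words. The words also pick up proteins that are not enzymes. The pectinesterase class held 59 enzymes, 35 proteins described by an inhibitor domain, 1 gene model described as pectinesterase-related (AT3G42160) and 1 whose description only places a pectinesterase gene on the opposite strand (AT3G27990). The polygalacturonase class held 60 enzymes, 3 BURP-domain proteins related to a polygalacturonase subunit (PG1, PG2 and JP630) and 3 leucine-rich repeat proteins described as polygalacturonase inhibitors (PGIP1, PGIP2 and FLR1).

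Each of 8 2-colour arrays compared Q0990 x bdl embryos with Q0990 x Col-0 embryos on the same slide, on 4 arrays 3 days after pollination and on 4 arrays 6 days after it. Q0990, a GAL4 enhancer-trap line, was the seed parent in both crosses, so every embryo had a Q0990 mother, and the pollen parent was bdl or Col-0. The labels give Col-0 as the ecotype of all samples. The name bdl stands for the stabilized form of BODENLOS (IAA12), an Aux/IAA protein that keeps the transcription factor MONOPTEROS (ARF5) from activating auxin-responsive genes in the embryo. The labels do not say whether the pollen parent carried the bdl mutation or a construct driven by GAL4, which cells Q0990 marks, or how many embryos were pooled per sample. The series text counts the 4 samples of each day as biological replicates.

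Pectin is laid down in plant cell walls as homogalacturonan whose sugar units carry methyl groups. Pectinesterases (pectin methylesterases) remove these groups, and proteins with a pectinesterase inhibitor domain can bind and block them, although some proteins with that domain inhibit invertases instead. Demethylated homogalacturonan can be bridged by calcium, which stiffens the wall, or be cut by polygalacturonases, which hydrolyse the chain, and by pectate lyases, which cleave it by elimination. Polygalacturonase-inhibiting proteins are leucine-rich repeat proteins best known for blocking the enzymes of pathogens. In seeds these activities are known from embryo growth, from the separation of cells and from the mucilage of the seed coat.

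The values are spot intensities as deposited, with median intensities of 311 to 486.5 per channel on the day 3 arrays and of 215 to 421 on the day 6 arrays. Testing needed signal above that of 95% of the blank spots on 4 or more of the 16 channel readings. This level was set for each channel of each array and was unequal between the crosses. On day 6 replicates 2, 3 and 4 it was 80.9, 75.0 and 256 in Q0990 x bdl and 208, 131 and 366 in Q0990 x Col-0. Counts of arrays above the blank spots therefore do not compare levels between the crosses. By this rule 137 of the 185 members (74.1%) and 80.2% of all gene models were kept. The kept members were 72 of 96 pectinesterase, 46 of 66 polygalacturonase and 19 of 23 pectate lyase gene models. Values were deposited for 138 members on day 3 and for 165 on day 6. A further 33 members, 15 of them without values on either day, exceeded the blank spots in no signal, and 46 members exceeded them in all 16. Of the kept members, 122 exceeded the blank spots on both days, 12 on day 3 only and 3 on day 6 only. Of those 15 members, 8 had no values on the other day. All 15 passed only through a single day, so their number says nothing about change between days. Members with a known role that were not kept were PME17, PME48, QRT1, QRT2, PGX1, PGX3 and PGIP1. The BDL gene itself, which the crosses were made to change, was 1.21 (day 3) and 1.30 (day 6) higher in Q0990 x bdl on the log2 scale through its gene model AT1G04550.2 (limma adjusted p = 1.35e-05 and 9.46e-06). Its model AT1G04550.1 had 0.15 on day 3 (adjusted p = 0.0519) and 0.59 on day 6 (adjusted p = 0.000135), and the arrays cannot tell an introduced form of BDL from the plant's own.

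The arrays did not vary as their labelled dyes would have them, since the deviations of day 3 replicates 1 and 2, which share a dye orientation, correlated at -0.527, and those of replicates 1 and 3, which do not, at 0.16. The labelled orientation was used throughout. An orientation read from the values gave 63 members called on day 3 and 65 on day 6, in place of the 52 and 53 given below. Over all gene models it gave 10411 and 9991 calls, in place of 8454 and 7672. With it, 0 calls of named genes changed direction.

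The samples are labelled as isolated embryos. Of 13 embryo markers, 11 exceeded the blank spots on all 4 day 3 arrays in either cross, and WOX2, a zygote and early embryo gene, did so on none of the 8. Genes of the surrounding seed tissues were also measured. On day 3, all 12 endosperm markers and 15 of 17 seed coat markers exceeded the blank spots on all 4 arrays in Q0990 x bdl, and 9 and 14 did so in Q0990 x Col-0. Endosperm markers summed to intensities of 26300 to 47900 in Q0990 x bdl and 17600 to 33300 in Q0990 x Col-0 on day 3, and to 4420 to 13200 in Q0990 x bdl and 3860 to 11000 in Q0990 x Col-0 on day 6. Seed coat markers summed to 91100 to 167000 in Q0990 x bdl and 69000 to 103000 in Q0990 x Col-0 on day 3, and to 13100 to 33000 in Q0990 x bdl and 11600 to 27700 in Q0990 x Col-0 on day 6. Embryo markers summed to 52200 to 79400 in Q0990 x bdl and 85200 to 113000 in Q0990 x Col-0 on day 3, and to 38900 to 101000 in Q0990 x bdl and 33000 to 79600 in Q0990 x Col-0 on day 6. On day 3, 10 of 12 endosperm markers were called higher in Q0990 x bdl (median log2 0.67), as were 11 of 17 seed coat markers (median 0.46), and 9 of 12 embryo marker gene models were called lower (median -0.43). On day 6, 5 of 11 endosperm markers were called higher, 3 seed coat markers were called higher and 3 lower, and 6 of 13 embryo marker gene models were called higher and 2 lower. BDL, which the crosses were made to change, is among the embryo markers and part of their sums. It gave the only embryo marker call that was higher on day 3, and both of its gene models were among the 6 on day 6. The endosperm markers FIS2, AGL36 and MINI3 exceeded the blank spots on no day 6 array. The marker levels thus moved with the cross on day 3. The endosperm and seed coat sums were lower on day 6 than on day 3 in both crosses. Embryo sums were lower on day 6 in Q0990 x Col-0 only, since in Q0990 x bdl the day 3 range lay within that of day 6. The part of these levels in the results on pectin genes was not tested. In such samples, fewer cells of a type and less RNA per cell cannot be told apart.

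The members as a whole, which include proteins that are not enzymes, were called about as often as other genes in the comparison of the crosses. They held a larger share of changes of at least 1.5-fold. On day 3, 52 of the 134 members tested (38.8%) were called at an adjusted p under 0.05, against 41.7% of all gene models tested, with 27 higher and 25 lower in Q0990 x bdl. On day 6, 53 of 132 (40.2%) were called, against 37.1% of all, with 26 higher and 27 lower. Changes of at least 1.5-fold were found for 14 of 134 members (10.4%) on day 3, against 6.5% of all gene models, and for 22 of 132 (16.7%) on day 6, against 5.19%. Catalytic enzymes alone gave 9 of 104 such changes on day 3 and 18 of 103 on day 6. The median log2 ratio over the members tested was 0.0023 on day 3 and 0.032 on day 6, beside -0.0075 and 0.028 over all gene models. Among all gene models, 19.9% were called higher and 21.8% lower on day 3, and 20.5% higher and 16.6% lower on day 6.

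The calls were also counted by class. On day 3, 7 of 19 pectate lyase gene models were called lower and 2 higher (median log2 -0.13, and -0.035 without day 3 replicate 4). Pectinesterase enzymes were split, with 7 of 45 higher and 8 lower, and so were polygalacturonase enzymes, with 8 of 40 higher and 7 lower. Among inhibitor-domain proteins the calls ran mainly one way on each day, with 9 of 24 called higher and 1 lower on day 3, and 1 of 23 called higher and 9 lower on day 6. Day 6 calls were 5 of 18 higher and 5 lower among pectate lyases, 10 of 46 higher and 6 lower among pectinesterase enzymes, and 7 of 39 higher and 6 lower among polygalacturonase enzymes. These counts describe the groups, which were not tested against other genes.

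**Figure D1:**
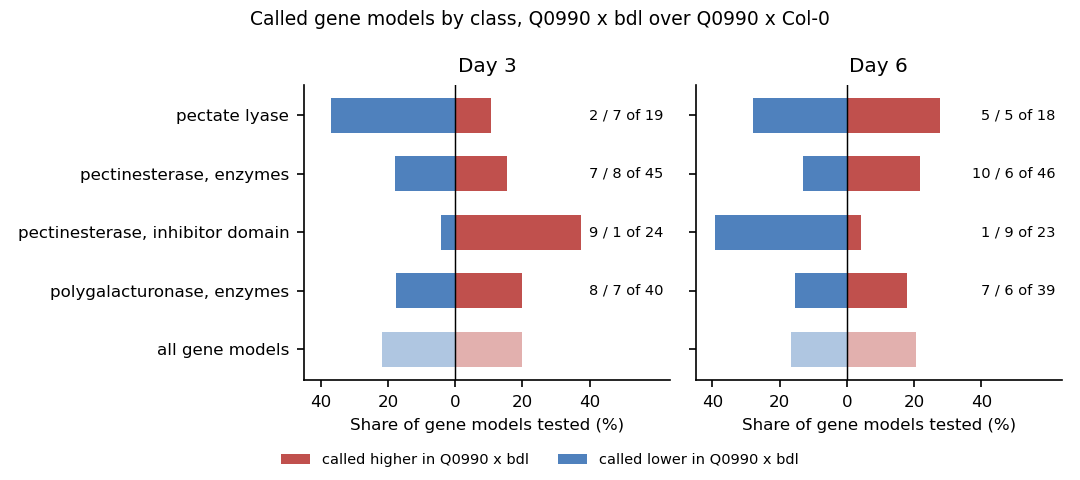
Share of the gene models tested that were called higher (red, to the right) or lower (blue, to the left) in Q0990 x bdl than in Q0990 x Col-0, in percent, by class on day 3 and day 6, with counts as higher / lower of tested and all gene models as the bottom bar. Among inhibitor-domain proteins 9 of 24 were called higher and 1 lower on day 3, and 1 of 23 higher and 9 lower on day 6, while the bars of the enzymes run to both sides.

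Among the pectate lyases, PMR6, whose loss makes plants resistant to powdery mildew, had the largest change on day 3. Its intensity was 153, 57.2, 168 and 147 on day 3 replicates 1 to 4 in Q0990 x bdl, against 305, 164, 431 and 424 in Q0990 x Col-0. Q0990 x bdl was the lower of the pair on each array, by 2.09-fold (log2 -1.06 ± 0.20 SD, n = 4, limma adjusted p = 1.66e-05). On day 6, PMR6 had 881, 353, 148 and 390.2 in Q0990 x bdl and 721, 302, 116 and 361 in Q0990 x Col-0, a log2 ratio of 0.22 ± 0.07 (adjusted p = 0.0195). That small day 6 difference was no longer called without day 6 replicate 1 (0.24, adjusted p = 0.0563), replicate 3 (0.17, adjusted p = 0.104) or replicate 4 (0.23, adjusted p = 0.0676). AT3G53190 was also lower on day 3, by 1.79-fold (log2 -0.84 ± 0.17 SD, adjusted p = 0.000286), with log2 ratios of -1.01, -0.66, -0.96 and -0.71. By day 6 the ratio of AT3G53190 stood at 0.34 ± 0.23 (adjusted p = 0.0239), or 0.25 without day 6 replicate 1 (adjusted p = 0.12) and 0.28 without replicate 3 (adjusted p = 0.117). The difference between the days, tested in the same fit, was 1.29 for PMR6 (adjusted p = 3.26e-05) and 1.18 for AT3G53190 (adjusted p = 0.000347).

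Another pectate lyase, AT4G13710, went the other way. On day 3 it had 2920.2, 3141, 4149 and 2797 in Q0990 x bdl and 2397, 2596, 3351 and 2209 in Q0990 x Col-0, 1.22-fold higher in Q0990 x bdl (log2 0.28 ± 0.03 SD, n = 4, adjusted p = 0.00533). At day 6 AT4G13710 had 684, 492, 619.6 and 446 in Q0990 x bdl and 2661, 1606, 2284 and 1472 in Q0990 x Col-0. All 4 day 6 values of Q0990 x bdl lay below all 4 of Q0990 x Col-0, a 3.26-fold difference (log2 -1.70 ± 0.14 SD, adjusted p = 2.07e-06). This was the largest change of any member in either comparison of the crosses, and the difference between days was -1.99 (95% interval -2.17 to -1.80, adjusted p = 6.21e-06).

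AT4G24780 was lower in Q0990 x bdl on both days, by 1.66-fold on day 3 (log2 -0.73 ± 0.06 SD, adjusted p = 0.000235) and by 2.55-fold on day 6 (log2 -1.35 ± 0.23 SD, adjusted p = 2.19e-05). Its day 6 log2 ratio was -1.01 on replicate 3 and lower, at -1.43 and -1.47, on replicates 2 and 4. AT3G07010 had day 3 log2 ratios of 0.01, -0.02, 0.03 and 0.13 and day 6 ratios of -1.24, -0.85, -1.11 and -1.14. It was 2.12-fold lower on day 6 (adjusted p = 2.53e-05). AT5G48900 and AT5G63180 were 1.85-fold and 1.56-fold lower on day 6 (log2 -0.89 ± 0.47 and -0.64 ± 0.17 SD, adjusted p = 0.00419 and 0.000386). Without day 6 replicate 1, where it was -1.58, AT5G48900 had a log2 ratio of -0.63. AT59, a pectate lyase gene known from pollen, reached a 1.28-fold excess in Q0990 x bdl at day 6 (0.36 ± 0.19 SD in log2, adjusted p = 0.0013), but it exceeded the blank spots on only 2 of 4 arrays in Q0990 x bdl and 1 of 4 in Q0990 x Col-0. The 5 pectate lyases lower on day 6 thus had changes of 1.56-fold to 3.26-fold, while the 5 called higher on that day reached at most 1.28-fold.

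**Figure D2:**
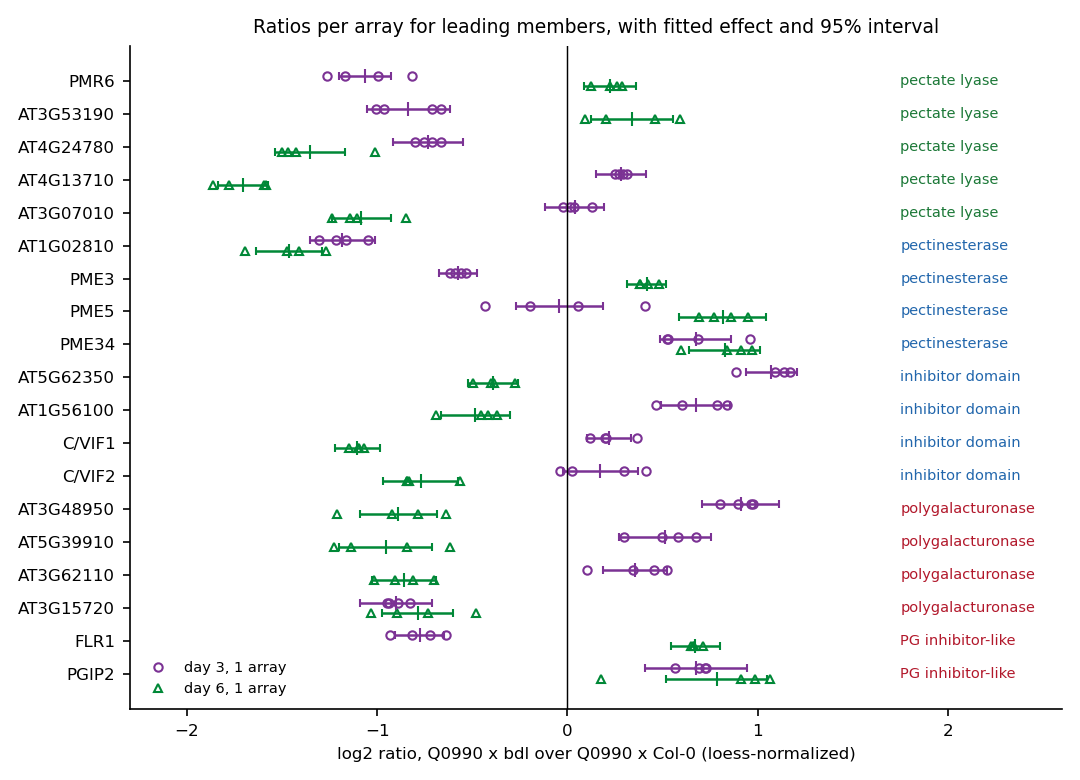
Log2 ratio between the crosses (positive where Q0990 x bdl is higher) for 19 named members, with 1 open symbol per array (circles day 3, triangles day 6) and a bar with caps for the fitted effect and its 95% interval. The symbols of AT1G02810, AT4G24780 and AT3G15720 lie left of 0 on both days, those of PME34 and PGIP2 right of 0 on both, and those of FLR1, PMR6 and AT3G48950 change sides between days.

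Among the pectinesterase enzymes, AT1G02810 had the largest change on both days and was lower in Q0990 x bdl on each. It had 248, 332, 427 and 409 on day 3 in Q0990 x bdl against 563, 891, 1051 and 980.1 in Q0990 x Col-0, a 2.27-fold difference (log2 -1.18 ± 0.11 SD, n = 4, adjusted p = 2.61e-05). At day 6 AT1G02810 had 822, 283, 421 and 450.3 in Q0990 x bdl against 2821, 765, 1223 and 1361 in Q0990 x Col-0, a 2.76-fold difference (log2 -1.46 ± 0.18 SD, adjusted p = 1.13e-05). The day 3 values of the 2 crosses did not overlap, and on day 6 Q0990 x bdl was the lower on each array.

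PME34, known from heat responses of guard cells, was higher in Q0990 x bdl on both days, by 1.60-fold at day 3 (0.67 ± 0.20 SD in log2, adjusted p = 0.000389) and 1.78-fold at day 6 (0.83 ± 0.16 SD in log2, adjusted p = 0.000198). Its day 6 signals were dim, at 839, 148, 211 and 245 in Q0990 x bdl and 428, 81.9, 84.0 and 117 in Q0990 x Col-0, and only 1 of the 4 Q0990 x Col-0 signals exceeded the blank spots. PME3, a widely expressed pectinesterase, changed sides. On day 3 it had 134, 246, 206 and 191 in Q0990 x bdl and 229, 393, 321 and 299 in Q0990 x Col-0 (log2 -0.58 ± 0.04 SD, adjusted p = 5.29e-05). By day 6 PME3 was 1.34-fold higher in Q0990 x bdl (log2 0.42 ± 0.05 SD, adjusted p = 0.000298), and the difference between days was 0.99 (adjusted p = 2.96e-05).

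PME58, a pectinesterase of the mucilage-secreting cells of the seed coat, was 1.52-fold higher in Q0990 x bdl on day 3 (0.60 ± 0.20 SD in log2, n = 4, adjusted p = 0.00145). On that day 11 of 17 seed coat markers were also called higher, against 19.9% of all gene models, and a link between them and PME58 was not tested. On day 6 the log2 ratio of PME58 was 0.20 (adjusted p = 0.14). PME5, known from the shoot apex, exceeded its Q0990 x Col-0 level by 1.76-fold in Q0990 x bdl at day 6 (0.82 ± 0.11 SD in log2, adjusted p = 0.000557). For AT3G43270 the day 6 excess in Q0990 x bdl was 1.83-fold (0.87 ± 0.16 SD in log2, adjusted p = 0.000106), with single arrays at 1.11, 0.78, 0.82 and 0.79. PME2 had ratios of 0.35 on day 3 (adjusted p = 0.000555) and -0.15 on day 6. The day 6 ratio of PME2 was called with all arrays (adjusted p = 0.0298) and not when any 1 of the 4 day 6 arrays was left out (adjusted p = 0.0651 to 0.129), whereas the difference of -0.50 between the days had an adjusted p of 0.000569. HMS, a pectinesterase needed for normal pectin in the embryo, showed no called difference between the crosses (0.07 on day 3 and 0.20 on day 6, adjusted p = 0.47 and 0.055). The pollen genes VGD1 and PPME1 were also not called on either day, with 0.22 (day 3) and 0.21 (day 6) for VGD1, and 0.011 (day 3) and 0.085 (day 6) for PPME1.

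AT3G10720 is called higher on day 6 in the fit (log2 0.65, adjusted p = 0.00107), but its 2 reporters gave 1.17 and 0.13, and with the brighter reporter alone the value was 0.13 (adjusted p = 0.223). The 2 gene models of the pectate lyase-described gene AT3G55140 differed on day 3 as well, with reporters at 0.13 and 0.19 for AT3G55140.1 and at -0.44 for AT3G55140.2.

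Calls among inhibitor-domain proteins were mainly higher on day 3 and mainly lower on day 6. On day 3, AT5G62350 led the group, with 3230.4, 2997, 3747 and 3773 in Q0990 x bdl against 1709.9, 1287, 1718 and 1660.2 in Q0990 x Col-0. The crosses did not overlap, and the difference was 2.10-fold (log2 1.07 ± 0.13 SD, n = 4, adjusted p = 1.38e-05). AT1G56100 (PMEI14), an inhibitor of pectinesterases, had 28745, 43822, 25221 and 22835 in Q0990 x bdl against 20669, 25829.8, 14114 and 15204 in Q0990 x Col-0, and was higher on each array (1.60-fold, log2 0.67 ± 0.17 SD, adjusted p = 0.000332). AT1G50340 was 1.58-fold higher (log2 0.66 ± 0.33 SD, adjusted p = 0.00347), and AT3G62820, AT3G17230, AT2G47340, AT1G56620, C/VIF1 and AT1G23205 had called ratios of 0.21 to 0.48. AT5G62340, which lies next to AT5G62350 in the genome, was the single member called lower (log2 -0.52, adjusted p = 0.00041).

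On day 6 the largest falls in this group were those of C/VIF1 and C/VIF2, which are named as inhibitors of beta-fructosidases (invertases) and not of pectinesterases. C/VIF1 had 2323, 720.2, 719 and 916 in Q0990 x bdl against 5102, 1627, 1589.7 and 2128 in Q0990 x Col-0, and was the lower on each array by 2.15-fold (log2 -1.10 ± 0.03 SD, n = 4, adjusted p = 6.97e-06). C/VIF2 had 17299, 4003, 3968 and 9628 in Q0990 x bdl against 31774, 7618, 7212 and 14989.5 in Q0990 x Col-0, a 1.71-fold difference (log2 -0.77 ± 0.14 SD, adjusted p = 0.000376). AT1G56100 and AT5G62350, both higher on day 3, were lower on day 6 (log2 -0.48 and -0.39, adjusted p = 0.00221 and 0.00142). AT4G02250 was the single member called higher (log2 0.42, adjusted p = 0.00812), but it exceeded the blank spots on no day 6 array in either cross. Of the 9 called lower, AT1G02550 did so on none either, AT1G70720 on 1 of 4 in either cross, and AT1G50340 on 2 of 4 in Q0990 x bdl and 1 of 4 in Q0990 x Col-0.

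The turn was tested for each gene as the difference between days. Of 23 inhibitor-domain proteins tested, 9 had a lower ratio on day 6 than on day 3 and 1 a higher one, where 19.1% of all gene models were called lower and 22.9% higher. The differences were -1.46 for AT5G62350 (adjusted p = 1.93e-05), -1.32 for C/VIF1 (adjusted p = 1.77e-05), -1.16 for AT1G56100 (adjusted p = 0.000166), -1.02 for AT1G50340 (adjusted p = 0.00233) and -0.94 for C/VIF2 (adjusted p = 0.000613). The single higher one was AT5G62340 (0.52, adjusted p = 0.00239), which exceeded the blank spots on 0 of 4 day 6 arrays in either cross, so that this difference rests on its day 3 ratio alone. Endosperm and seed coat markers showed the same order of days, with 7 of 11 and 8 of 17 called lower in the difference and none called higher, and embryo markers the opposite one, with 8 of 12 gene models higher and 1 lower. Those 12 include the gene models of BDL. The part of these tissues in the turn of the inhibitor-domain genes was not tested.

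Among the polygalacturonases, AT3G48950 was the enzyme with the largest rise on day 3 and one of the larger falls on day 6. It had 3059, 4747, 5200.1 and 5439 in Q0990 x bdl on day 3 against 1605, 2359.7, 2613 and 3051 in Q0990 x Col-0 (1.88-fold, log2 0.91 ± 0.08 SD, n = 4, adjusted p = 0.000135). At day 6 AT3G48950 had 154, 102, 119.7 and 123 in Q0990 x bdl against 428, 189, 274 and 252 in Q0990 x Col-0 (1.85-fold lower, log2 -0.89 ± 0.24 SD, adjusted p = 0.000204). The crosses did not overlap on either day, although on day 3 the lowest Q0990 x bdl value (3059) stood close to the highest of Q0990 x Col-0 (3051). On day 6 it exceeded the blank spots on 3 of 4 arrays in Q0990 x bdl and 2 of 4 in Q0990 x Col-0. AT5G39910 and AT3G62110 had the same pattern, with 0.51 and 0.36 on day 3 (adjusted p = 0.00545 and 0.00519) and -0.96 and -0.86 on day 6 (adjusted p = 0.000354 and 0.000106). The differences between days were -1.80, -1.47 and -1.22 for AT3G48950, AT5G39910 and AT3G62110 (adjusted p = 3.99e-05, 0.000209 and 9.22e-05).

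AT3G15720 was lower in Q0990 x bdl on both days, by 1.87-fold and 1.73-fold (log2 -0.90 ± 0.05 and -0.79 ± 0.24 SD, adjusted p = 0.000105 and 0.000258). On day 6 it exceeded the blank spots on 1 of 4 arrays in either cross, so its level there is uncertain. AT4G23500 was higher on both days (log2 0.19 and 0.55, adjusted p = 0.0324 and 0.000325). AT3G61490 and AT3G07820 were called higher on day 6 only (log2 0.90 ± 0.30 and 0.81 ± 0.16 SD, adjusted p = 0.000386 and 0.000305). Their day 3 ratios were 0.00057 and -0.037, and the differences between days were 0.90 and 0.84 (adjusted p = 0.00166 and 0.00106). AT3G07820 had 119, 207, 79.1 and 184 in Q0990 x bdl on day 6 against 62.5, 81.6, 25.2 and 79.5 in Q0990 x Col-0, none of the Q0990 x Col-0 signals above the blank spots. ADPG1 and ADPG2, which open siliques and anthers by separating cells, had day 3 ratios of 0.31 and -0.27. Both calls were lost when single day 3 arrays were left out, namely replicate 2 or 4 for ADPG1 (0.25 and 0.24, adjusted p = 0.106 and 0.102) and replicate 1, 3 or 4 for ADPG2 (-0.20, -0.20 and -0.30, adjusted p = 0.161, 0.165 and 0.0722), and for ADPG2 also without day 6 replicate 1, 2 or 4 (adjusted p = 0.0547 to 0.0598).

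Both leucine-rich repeat proteins measured in this class were called on both days. FLR1, a protein that binds a floral MADS-box factor, had 596, 992, 1012 and 745 in Q0990 x bdl on day 3 against 954, 1915, 1699 and 1348 in Q0990 x Col-0, 1.71-fold lower in Q0990 x bdl (log2 -0.78 ± 0.13 SD, n = 4, adjusted p = 4.16e-05). At day 6 FLR1 had 4012, 1272, 2007 and 1892 in Q0990 x bdl against 2458, 808, 1278 and 1198 in Q0990 x Col-0, 1.59-fold higher (log2 0.67 ± 0.03 SD, adjusted p = 0.000102), and the difference between days was 1.45 (adjusted p = 1.79e-05). PGIP2, a polygalacturonase-inhibiting protein, was higher in Q0990 x bdl on both days (log2 0.68 ± 0.08 and 0.78 ± 0.41 SD, adjusted p = 0.00227 and 0.00145). On day 6 replicate 3, where PGIP2 had an intensity of 21.0 in Q0990 x bdl and 12 in Q0990 x Col-0, its ratio was 0.18 against 0.91 to 1.06 on the other arrays. PGIP2 exceeded the blank spots on 3 of 4 day 6 arrays in Q0990 x bdl and 1 of 4 in Q0990 x Col-0, so its day 6 ratio is uncertain. None of the 3 BURP-domain genes was called on day 3. On day 6, PG2 was higher (log2 0.33, adjusted p = 0.00891) and PG1 lower (log2 -0.26, adjusted p = 0.0356), although PG1 exceeded the blank spots on at most 1 of 4 arrays.

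Calls on the 2 days were set side by side for the 129 members tested on both. Opposite calls were 10 higher on day 3 and lower on day 6 (7.75%, against 3.69% of all gene models) and 8 the reverse (6.2%, against 5.69%). Calls in the same direction were 4 higher on both days (VGDH1, PME34, AT4G23500 and PGIP2; 3.1%, against 5.01% of all gene models) and 4 lower on both (AT4G24780, AT1G02810, AT2G15460 and AT3G15720; 3.1%, against 3.98%). VGDH1 exceeded the blank spots on 0 of 4 day 6 arrays in either cross, so its day 6 ratio is one of background signals. PME34 and PGIP2 each exceeded them on 1 of 4 day 6 arrays in Q0990 x Col-0. The 10 were the pectate lyase AT4G13710, the polygalacturonases AT3G48950, AT5G39910 and AT3G62110, PME2, and the inhibitor-domain genes AT5G62350, AT1G56100, AT1G50340, C/VIF1 and AT1G23205. The 8 included PMR6, AT3G53190, PME3 and FLR1. With any 1 array left out, the 10 became 8 or 9. The 8 became 3 without day 6 replicate 1, 4 without day 3 replicate 1 or day 6 replicate 4, and 5 without day 6 replicate 2 or 3, and the 4 higher on both days became 2 without day 3 replicate 2. The difference between days itself was called for 58 of 129 members (45%), against 42% of all gene models, 29 in each direction.

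**Figure D3:**
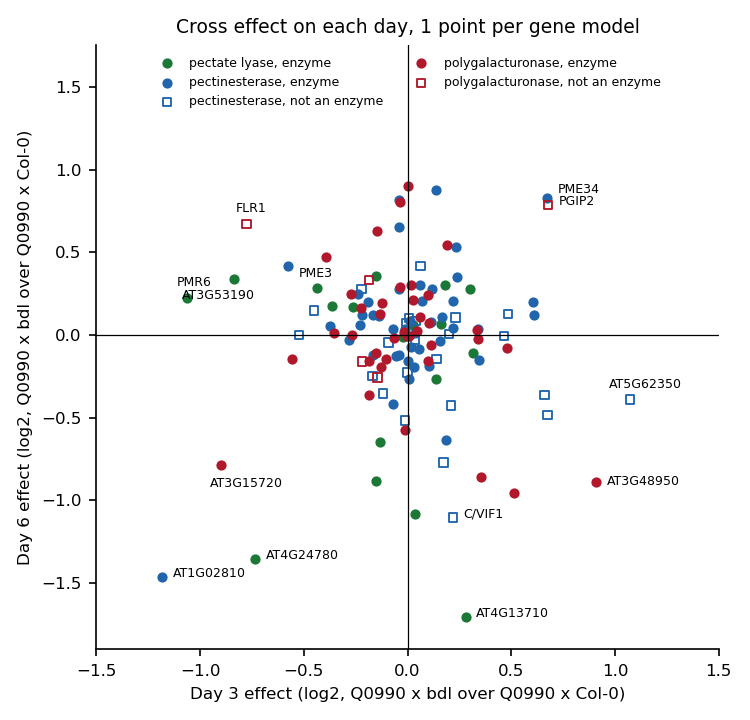
Day 3 effect (horizontal) against day 6 effect (vertical), both as the log2 ratio between the crosses (positive where Q0990 x bdl is higher), with 1 point per gene model tested on both days (129), filled circles for enzymes and open squares for other proteins of a class. AT1G02810 lies at -1.18 and -1.46 and PME34 at 0.67 and 0.83, while AT5G62350 (1.07 and -0.39) and FLR1 (-0.78 and 0.67) lie in the quadrants of opposite sign.

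Much larger differences separated the 2 days within each cross. No array held both days, so these values compare arrays, through limma's separate-channel model. In Q0990 x bdl, 53 of 129 members (41.1%) were called between day 6 and day 3, against 31.5% of all gene models, 27 higher and 26 lower on day 6. In Q0990 x Col-0, 47 of 129 (36.4%) were called, against 25.7% of all, 21 higher and 26 lower. Scaling the arrays over all measured reporters, in place of those measured on all 8 arrays, turned these splits into 39 higher and 19 lower in Q0990 x bdl and 36 higher and 20 lower in Q0990 x Col-0. The same scaling gave a median of all gene models of 0.44 in Q0990 x bdl and 0.41 in Q0990 x Col-0, where it was 0.081 and 0.054 otherwise. Both crosses shared 18 members called higher on day 6 and 23 called lower, 12 more were called in Q0990 x bdl only and 6 in Q0990 x Col-0 only, and 0 were called in opposite directions. Among inhibitor-domain proteins the calls were 16 of 23 in Q0990 x bdl (6 higher and 10 lower) and 14 of 23 in Q0990 x Col-0 (6 higher and 8 lower). Catalytic enzymes alone gave 34 of 100 in Q0990 x bdl and 33 of 100 in Q0990 x Col-0. In Q0990 x bdl these were 11 of 18 pectate lyases, 12 of 44 pectinesterase enzymes and 11 of 38 polygalacturonase enzymes. The same groups had 8 of 18, 13 of 44 and 12 of 38 in Q0990 x Col-0.

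The inhibitor-domain genes AT5G46960 and AT1G09370 were bright on day 3 and near the blank spots on day 6. AT5G46960 had 26564, 42831, 33888 and 36630.3 in Q0990 x bdl and 26058, 34682, 32822 and 28317 in Q0990 x Col-0 on day 3. On day 6 it had 96.7, 30.9, 24.6 and 39.8 in Q0990 x bdl and 90.3, 33.3, 29.0 and 36.7 in Q0990 x Col-0, where only 1 of 4 signals exceeded the blank spots in either cross. The log2 change was -8.33 in Q0990 x bdl (95% interval -8.94 to -7.71, adjusted p = 5.42e-12) and -8.13 in Q0990 x Col-0 (-8.74 to -7.51, adjusted p = 1.03e-11). AT1G09370 had 31861 to 39966 in Q0990 x bdl and 33135 to 45285 in Q0990 x Col-0 on day 3, and 42.9 to 84.3 in Q0990 x bdl and 42.6 to 109.7 in Q0990 x Col-0 on day 6 (log2 -8.16 and -7.93, adjusted p = 7.76e-11 and 1.39e-10). AT1G09370 and AT1G56620 likewise exceeded the blank spots on 1 of 4 day 6 arrays in either cross, so the size of the change of all 3 genes is uncertain. AT1G56620 had log2 changes of -4.91 in Q0990 x bdl and -4.79 in Q0990 x Col-0, and AT1G56100 of -4.93 and -3.77. The pectinesterase AT4G02300 changed by -3.64 in Q0990 x bdl and -3.92 in Q0990 x Col-0 (adjusted p = 6.07e-09 and 3.69e-09; above the blank spots on 3 and 1 of 4 day 6 arrays), and the polygalacturonase AT3G48950 by -4.64 and -2.84 (adjusted p = 6.75e-09 and 3.56e-06). Across the same days, 8 of 11 endosperm markers were called lower in Q0990 x bdl (median -2.42) and 6 of 11 in Q0990 x Col-0 (median -1.57), and 10 of 17 seed coat markers were called lower in each cross. Of 12 embryo marker gene models, 3 were called lower and 3 higher in Q0990 x bdl (median -0.30). In Q0990 x Col-0, 6 of the 12 were called lower and 1 higher (median -0.85). Among all gene models, 15.2% were called lower in Q0990 x bdl and 13.1% in Q0990 x Col-0. The part of these tissues in the falls of the pectin genes was not tested.

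The largest rise was that of PME5. It had 89.4, 33.8, 72.7 and 39.9 in Q0990 x bdl and 83.7, 8.89, 84.8 and 73.9 in Q0990 x Col-0 on day 3, near the blank spots, and 27375, 4971, 3429.9 and 8689.5 in Q0990 x bdl and 14411, 3199, 1911 and 5339 in Q0990 x Col-0 on day 6. The log2 change was 6.40 in Q0990 x bdl (95% interval 5.53 to 7.26, adjusted p = 4.83e-09) and 5.54 in Q0990 x Col-0 (4.67 to 6.40, adjusted p = 3.87e-08). HMS had 21.1 to 41.7 in Q0990 x bdl and 19.2 to 47.0 in Q0990 x Col-0 on day 3, and 1153 to 2939 in Q0990 x bdl and 1079.6 to 2333 in Q0990 x Col-0 on day 6 (log2 4.39 and 4.26, adjusted p = 2.03e-09 and 4.43e-09), and it exceeded the blank spots on 1 of 4 day 3 arrays in either cross. PME3 rose by 3.65 in Q0990 x bdl and 2.66 in Q0990 x Col-0, AT5G51490 by 3.21 and 3.25, and the invertase inhibitor gene C/VIF2 by 2.97 and 3.91. Among the pectate lyases, AT3G53190 rose by 2.87 in Q0990 x bdl and 1.70 in Q0990 x Col-0, and AT3G01270, above the blank spots on 2 and 1 of 4 day 6 arrays, had -2.97 and -3.10. The polygalacturonase AT4G23500 rose by 2.54 and 2.19. AT5G62350 had 0.62 in Q0990 x bdl (adjusted p = 0.129, not called), against 2.08 in Q0990 x Col-0 (adjusted p = 7.83e-05). PMR6 was called in Q0990 x bdl (1.24, adjusted p = 0.00634) and had -0.05 in Q0990 x Col-0 (adjusted p = 0.92), and AT4G13710 had -2.27 in Q0990 x bdl (adjusted p = 6.91e-06) and -0.28 in Q0990 x Col-0 (adjusted p = 0.474). For AT5G62350, PMR6 and AT4G13710 the test of the difference between days, given above, is also the test of whether the crosses changed unequally. In the 65 named day changes, the 4 arrays of one day overlapped those of the other for 3, namely AT59 in Q0990 x bdl and AT5G63180 and AT3G15720 in Q0990 x Col-0.

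**Figure D4:**
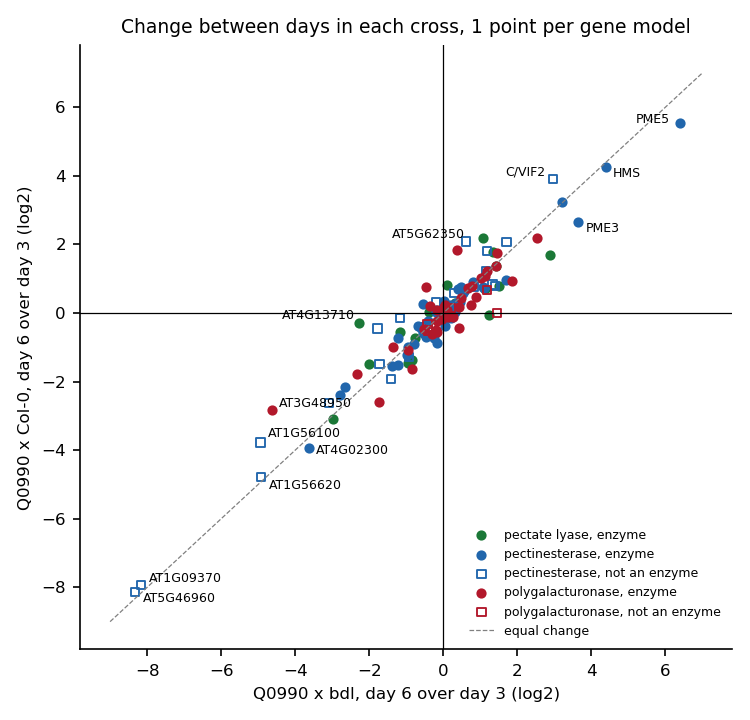
Log2 change, day 6 over day 3, in Q0990 x bdl (horizontal) and Q0990 x Col-0 (vertical), with 1 point per gene model and a dashed line of equal change. The points of AT5G46960 and AT1G09370 lie at -8.33 and -8.13 and at -8.16 and -7.93 and PME5 at 6.40 and 5.54, and AT3G48950 (-4.64 and -2.84) lies left of the line.

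**Figure D5:**
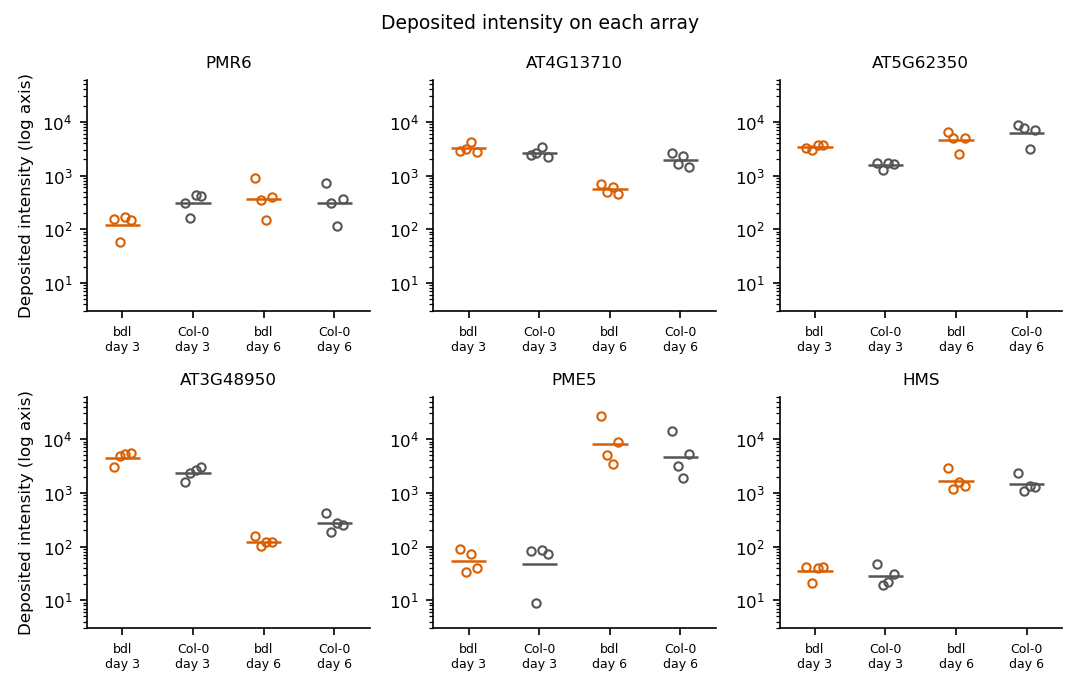
Deposited intensity of 6 members on each array, on a log axis, with 1 circle per array and a line for the geometric mean, in Q0990 x bdl (orange) and Q0990 x Col-0 (grey) on day 3 and day 6. PMR6 is lower in Q0990 x bdl on day 3, AT4G13710 on day 6, and PME5 and HMS are near the blank spots on day 3 and at 1079.6 or more on day 6.

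Many members lie side by side in the genome, where near-identical sequences could share signal on a long-oligonucleotide array. By the order of genes in the reference table, 50 members stood next to another member, in 22 groups of at most 3. Neighbours did not always move together. In the group of AT5G62340 and AT5G62350, AT5G62340 had -0.52 on day 3 and AT5G62350 1.07. PME3 fell by 0.58 on day 3, while its neighbour ATPMEPCRC had -0.041 (adjusted p = 0.747). PME2 and PME1, also neighbours, had 0.35 and -0.19 on day 3, and the call of PME1 was lost without day 3 replicate 1, 2 or 3 (-0.19, -0.17 and -0.16, adjusted p = 0.0792, 0.109 and 0.118). The neighbours VGDH1 and VGD1 moved alike, with 0.24 and 0.22 on day 3 and 0.35 and 0.21 on day 6. Of these, VGD1 was not called, and VGDH1 exceeded the blank spots on no day 6 array. In many of the groups fewer than 2 members were tested, so they could not be compared. PGIP2 and its neighbour PGIP1 were such a case, because PGIP1 exceeded the blank spots in 1 signal only. Whether neighbours shared signal was not tested.

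Other genes of pectin metabolism were taken from lists. For comparison with their counts, the shares called over all gene models were 19.9% higher and 21.8% lower on day 3, and 20.5% higher and 16.6% lower on day 6. Of 21 pectin synthesis genes tested on day 3, 8 were called higher and 4 lower in Q0990 x bdl, and of 22 on day 6, 7 were higher and 2 lower (median log2 0.023 and 0.10, beside -0.0075 and 0.028 over all gene models). GAE6, which makes the sugar nucleotide used for homogalacturonan, was higher on day 3 (0.60, adjusted p = 4.02e-05). RHM2/MUM4, needed for seed coat mucilage, was also higher on day 3 (0.53, adjusted p = 0.0142). The galacturonosyltransferase genes GAUT8/QUA1 and GAUT10 were lower on day 3 (-0.34 and -0.42) and higher on day 6 (both 0.21). CGR2, a homogalacturonan methyltransferase gene, had -0.32 on day 3 and 0.42 on day 6 (adjusted p = 0.000853 and 0.000332). Among 15 gene models of pectin acetylesterases, 5 were higher and 4 lower on day 3, and 4 of 14 were higher and 4 lower on day 6. AT3G62060 had the largest ratio among them (-1.06 on day 3, adjusted p = 1.86e-05). Among 5 rhamnogalacturonan lyases, AT4G37950 had 1.01 on day 3 and -0.996 on day 6 (adjusted p = 4.03e-05 and 5.38e-05), and AT1G09910 was the other gene called (0.22 on day 3). Of the 8 listed pectin methylesterase inhibitors 3 were tested, of which PMEI14, described above, was called. Of the pectin-binding receptor kinases WAK2 had -0.91 and FER 0.33 on day 6 (adjusted p = 0.000184 and 0.0056), and neither was called on day 3.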

How the data were processed

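The authors' deposited tables give 1 intensity per spot and channel for each of 8 2-colour long-oligonucleotide arrays (4 per day), with Q0990 x bdl in Cy5 on 2 arrays of each day and in Cy3 on the other two, per the labels. RNA was amplified and dye-coupled, per the labels' protocols, and the image software, background treatment and normalization behind the deposited intensity are not given in the sources used here. Intensities were raised by an offset of 50, and log2 ratios were normalized within arrays by loess (span 0.3, 4 iterations, control spots at weight 0) in limma 3.58.1 and R 4.3.3 with statmod 1.5.0. Reporters above the 95th percentile of 1743 blank spots in at least 4 of 16 channel signals were kept (22012 of 27462) and averaged per gene model. The model held day 3, day 6 and a dye effect, needed 3 arrays per day, and was adjusted by Benjamini-Hochberg over all gene models at 0.05. Because of the offset, a ratio understates the change of dim genes. Day 6 over day 3 within a cross came from limma's separate-channel model after Aquantile scaling (intraspot correlation 0.946), over reporters measured on all 8 arrays.

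Precision is limited by the small number of arrays, 4 for each day. Both days shared a single estimate of spread over all 8 arrays, so the p-values of each day also rest on the arrays of the other. On simulated data over 19964 gene models, the day 3 test called 84% of 100 genes changed 1.5-fold and 96% of 100 changed 2-fold. The simulation used independent normal noise and the labelled dye effect, and added the changes after the offset. It changed far fewer genes than the 41.7% called on day 3 in the data, so these shares need not hold for the data. Genes named are the leading 8 called genes per class in each comparison of the crosses, the leading 5 in each direction per class for the day changes, and genes with a known role. Members and lists were chosen with earlier results of these data known. Alternatives varied the offset, background, normalization, dim-reporter filter, reporter choice, dye term, samples in the fit and replicate block, and left out each array in turn. The series value table and sequences were not used here.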

Additional observations from a re-analysis of the deposited data

Results flagged for a closer look

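Among 56 groups of 4 arrays checked, 1 array stood far from the other 3 for 5 genes, where chance alone flags about 1 in 20 groups. AT3G27400 had a log2 ratio of -0.586 on day 3 replicate 3, with the others at -0.309 to -0.265. On day 6, AT4G24780 had -1.01 on replicate 3 (others -1.5 to -1.43), AT5G48900 had -1.58 on replicate 1 (others -0.749 to -0.592), AT3G43270 had 1.11 on replicate 1 (others 0.782 to 0.815) and C/VIF2 had -0.563 on replicate 4 (others -0.845 to -0.833).

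For 28 named genes the log2 ratio between the crosses (positive where Q0990 x bdl is higher) differed between day 6 and day 3 by the limma test of that difference. Among pectate lyases the day 6 ratio was lower for AT4G13710 (-1.99), AT3G07010 (-1.12), AT5G48900 (-0.734), AT4G24780 (-0.619) and AT5G63180 (-0.512), and higher for PMR6 (1.29), AT3G53190 (1.18) and AT3G27400 (0.538). Among pectinesterase enzymes it was lower for AT2G47280 (-0.82), PME2 (-0.496) and PME58 (-0.404), and higher for PME3 (0.992), PME5 (0.86) and PME1 (0.388). Among inhibitor-domain genes it was lower for AT5G62350 (-1.46), C/VIF1 (-1.32), AT1G56100 (-1.16), AT1G50340 (-1.02) and C/VIF2 (-0.944). In the polygalacturonase class it was lower for AT3G48950 (-1.8), AT5G39910 (-1.47) and AT3G62110 (-1.22), and higher for FLR1 (1.45), AT3G61490 (0.902), AT4G23820 (0.862), AT3G07820 (0.843), AT3G07850 (0.777) and ADPG2 (0.523). The difference of AT5G48900 was not called without day 3 replicate 1 (-0.611, limma adjusted p = 0.0921), 2 (-0.718, 0.0715) or 3 (-0.714, 0.0737) or day 6 replicate 4 (-0.773, 0.0652). That of PME58 was not called without day 3 replicate 2, 3 or 4 (-0.37, -0.431 and -0.307) or day 6 replicate 2, 3 or 4 (-0.411, -0.438 and -0.3), with adjusted p-values of 0.0613 to 0.107. The difference of PME5 was not called without an offset (0.742, limma adjusted p = 0.163). On day 6, AT3G07850 exceeded the blank spots on 1 of 4 arrays in Q0990 x bdl and 0 of 4 in Q0990 x Col-0. AT3G27400 did so on 1 of 4 in either cross, so the day 6 ratios of both genes are uncertain.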

How the results depend on the processing

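Of 149 calls of named genes, 125 were kept under every alternative run. Over 2806 recomputed values, 105 fell short of the threshold and 0 changed direction. Requiring signal above the blank spots in all 16 signals, which tests fewer genes, left 27 (day 3), 25 (day 6), 30 (difference), 15 (Q0990 x bdl day change) and 15 (Q0990 x Col-0 day change) of 45 members called. Of all 10212 gene models tested under this filter, 5311, 5439, 5522, 3159 and 2457 were called in the same comparisons. Among 7 inhibitor-domain genes the filter left 4 higher and 0 lower on day 3, and 0 higher and 5 lower on day 6. Fitting each day alone gave 31 of 134 members on day 3, beside 5469 of 20275 gene models in all. It gave 5 of 24 inhibitor-domain genes higher on day 3 and 2 of 23 higher on day 6. Catalytic enzymes alone, an alternative added after seeing the data that holds fewer genes, gave 34 of 100 called in the Q0990 x bdl day change, against 31.5% of all gene models.

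With each array left out in turn, the members called numbered 36 to 51 (day 3), 42 to 57 (day 6), 44 to 52 (difference), 43 to 54 (Q0990 x bdl day change) and 38 to 45 (Q0990 x Col-0 day change). Over all gene models the calls numbered 6807 to 8323, 5055 to 7798, 6790 to 8010, 4761 to 6233 and 3494 to 5226. Inhibitor-domain genes numbered 6 to 9 higher and 1 to 2 lower on day 3, and 1 to 2 higher and 6 to 9 lower on day 6. Pectate lyase medians ran from -0.148 to -0.0351 (day 3), 0.0523 to 0.0716 (day 6), -0.0628 to 0.0284 (difference), -0.0395 to 0.247 (Q0990 x bdl day change) and 0.0638 to 0.324 (Q0990 x Col-0 day change). Pectinesterase medians ran, over the same comparisons, from 0.00657 to 0.0661, 0.0213 to 0.0594, -0.0737 to -0.0123, -0.126 to 0.0294 and -0.0758 to 0.0665, and polygalacturonase medians from -0.0619 to -0.0157, -0.0025 to 0.0221, 0.0406 to 0.101, 0.0267 to 0.204 and 0.00298 to 0.2.

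Class medians were small and moved with the setting, and the cause was not tested. Signal in all 16 gave pectate lyases -0.0623 (day 3), -0.985 (day 6), -0.677 (difference), 0.516 (Q0990 x bdl day change) and 0.983 (Q0990 x Col-0 day change), pectinesterases 0.0626 (day 6) and 0.0478 (difference), and polygalacturonases 0.567 (Q0990 x bdl day change) and 0.476 (Q0990 x Col-0 day change). Median centring gave 0.0344, 0.0143 and -0.0196 on day 6 and -0.0469, -0.0829 and 0.0144 in the difference for pectate lyases, pectinesterases and polygalacturonases. Pectate lyases had 0.0227 without a filter and 0.0907 with the brightest reporter on day 6, and 0.0457 without an offset in the difference. Pectinesterases had -0.0264 in the difference with an offset of 200. Scaling over all measured reporters gave 0.513, 0.342 and 0.515 in the Q0990 x bdl day change and 0.574, 0.437 and 0.489 in the Q0990 x Col-0 day change for the same 3 classes.

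The deviations of same-numbered day 3 and day 6 arrays correlated at -0.223, -0.19, -0.148 and -0.269. The dye orientation read from the values is opposite in each same-numbered pair, so these correlations cannot tell whether the replicate numbers pair the samples. With the replicate block, 41 (day 3), 46 (day 6), 49 (difference), 61 (Q0990 x bdl day change) and 57 (Q0990 x Col-0 day change) members were called. Over all gene models the block gave 7026, 5902, 6964, 7784 and 6764 calls. The deviations did not follow the labelled dyes: replicates 1 and 2 of day 3, labelled with the same dye orientation, correlated at -0.527, while 1 and 3 correlated at 0.16. An orientation read from the values, added after seeing the data, gave 63, 65, 70, 48 and 45 called in the same comparisons. Over all gene models that orientation gave 10411, 9991, 10425, 6222 and 5046 calls. Signals near the blank spots limit the day 6 values most, where the 95th percentile of blank spots reached 366. Fitting each day alone gives no difference between days, and neither it nor the fit without a dye effect was run for the day changes.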
